A study of Mus musculus with 10 samples.

Results

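The 8 laminin genes described here are those whose chains lie outside laminin-332, the main anchoring laminin of skin, and they were picked by gene name: Lama1, Lama2, Lama4, Lama5, Lamb1, Lamb2, Lamc1 and Lamc3. All 8 have a row among the 18502 genes of the deposited Eed table, and 7 have one among the 18344 genes of the deposited Ring1 table, where Lamc3 was not analysed here. RNA was sequenced from mouse back-skin keratinocytes of the epidermis between the hair follicles, sorted for EpCAM, Sca1 and a high level of α6-integrin. Of the 10 libraries, 3 are from Eed knockout cells (genotype Eed -/-) and 3 from their controls, and 2 are from Ring1a/b 2KO cells (genotype Ring1a-/- Ring1b-/-) and 2 from their own controls. Eed is a core subunit of Polycomb repressive complex PRC2, and Ring1a and Ring1b (gene symbols Ring1 and Rnf2) are the ubiquitin ligases of PRC1; both complexes hold developmental genes silent. Per the labels, 100 µl of 4-hydroxytamoxifen at 20 mg/ml was put on shaved skin once a day for 4 days from postnatal day 50 to induce recombination, and all mice were taken at postnatal day 71. The labels give this treatment for every group, controls included, and each knockout has its own controls. The sources used here do not give the Cre driver, the alleles of the controls or the sex of the mice.

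The recovered reads per library ranged from 31699979 to 40701183 in the Eed table and from 6237389 to 25158144 in the Ring1 table, where library 2 of each group was the shallower. The basal keratinocyte keratin Krt5 was among the abundant transcripts of every library, at 410630 normalised read counts or more in the Eed table and 107871 or more in the Ring1 table. Transcripts of the deleted genes did not separate the groups: Eed was at 1319 to 1845 in the controls and 1143 to 1412 in the knockouts, and Ring1 (66.2 and 211 against 104 and 115) and Rnf2 (675 and 670 against 720 and 529) overlapped as well. The sources used here do not say which exons were deleted. Counts over whole genes therefore do not check the labels, and the groups are named as labelled. The labels do not tell if a library stands for 1 mouse, and p-values measure only the spread between these samples, which may be technical.

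Laminins are cross-shaped proteins of 1 α, 1 β and 1 γ chain that polymerise into the sheet on which basal keratinocytes rest. Laminin-332, to which Lama3 and Lamb3 contribute the α3 and β3 chains, binds α6β4 integrin in hemidesmosomes. The chains considered here build the other laminins: α5 with γ1 and either β1 or β2 is the second epidermal laminin and binds α3β1 and α6 integrins, α1 is known from embryonic basement membranes, α2 from muscle and peripheral nerve, α4 from blood vessels, β2 from neuromuscular junctions and kidney, and γ3 from a small set of tissues.

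Polycomb complexes are known to gather at promoters rich in CG dinucleotides. Of the 8 genes, 4 had a RefSeq promoter entry (GRCm38.p6, a window of 300 bases around the start). The stretches upstream of the transcription start of Lamb1, which had higher values than its controls in all libraries of both knockouts, and of Lama5, an abundant chain, are shown with each CG in capitals; limma called neither gene in either knockout.
Lamb1: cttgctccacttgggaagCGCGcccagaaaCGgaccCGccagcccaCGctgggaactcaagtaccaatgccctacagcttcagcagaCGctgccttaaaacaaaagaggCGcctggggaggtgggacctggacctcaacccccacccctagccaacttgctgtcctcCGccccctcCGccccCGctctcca
Lama5: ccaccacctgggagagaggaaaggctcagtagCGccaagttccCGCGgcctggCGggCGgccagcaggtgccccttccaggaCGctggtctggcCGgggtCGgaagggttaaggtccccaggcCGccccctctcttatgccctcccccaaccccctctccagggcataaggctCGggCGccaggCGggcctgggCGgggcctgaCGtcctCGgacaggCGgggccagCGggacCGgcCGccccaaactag
The Lamb1 stretch is chr12:31265043-31265233 on the plus strand and holds 10 CG dinucleotides in 191 bases. The Lama5 stretch is chr2:180225860-180226109 on the minus strand and holds 19 in 250 bases. Over the full window Lamb1 had 18 and Lama5 had 24, against a median of 7 over 32851 mouse promoter windows. Of those windows, 43.5% held at least 10 and 26.5% at least 20. Lamb2 had 4 and Lama2 had 1. The Lama2 window (chr10:27616893-27617192, minus strand) lies inside the gene span given below, so it does not describe the start of that span. The motif GGGCGG, searched on both strands, was found in the windows of Lama5, Lamb1 and Lama2 and in 35.7% of all windows, and TATAAA, searched likewise, was in none of the 4 and in 13.6% of all windows. The values of Lamb1 and Lama5 are given below, and in the Ring1a/b 2KO their log2 fold changes had opposite signs, neither passing the test. Any link between CG content and these values was not tested.

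In control cells Lamc1, Lama5 and Lamb2 were the most abundant of the 8 genes, at levels below those of Lama3 and Lamb3 of laminin-332. Levels between genes are given as normalised read counts per kilobase of the longest coding transcript. In the Eed controls (n = 3) Lamb3 had 2024 ± 530 (SD) and Lama3 1580 ± 75.3. Lamc1 had 599 ± 80.0, then Lama5 at 431 ± 31.4 and Lamb2 at 412 ± 41.0. The γ1 gene therefore stood above every other chain outside laminin-332, and Lama5 and Lamb2 overlapped each other. Lama1 had 169 ± 67.3, Lamb1 76.5 ± 12.7, Lama4 58.7 ± 11.4 and Lama2 2.32 ± 0.109, with Lamb1 and Lama4 overlapping, and Lamc3 was at 0 in all 3 libraries. The same order held in the Ring1 controls (n = 2), with Lamc1 at 189 ± 22.1, Lama5 at 186 ± 16.7, Lamb2 at 101 ± 0.350, Lama1 at 93.4 ± 16.3, Lamb1 at 45.7 ± 19.1, Lama4 at 16 ± 2.64 and Lama2 at 2.29 ± 1.17. There Lamc1 overlapped Lama5 and Lamb2 overlapped Lama1. The order depends on transcript length: with the mean length of the coding transcripts, Lamb2 moved above Lamc1 in the Eed controls, to 1369 ± 136 against 1006 ± 135.

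**Figure D1:**
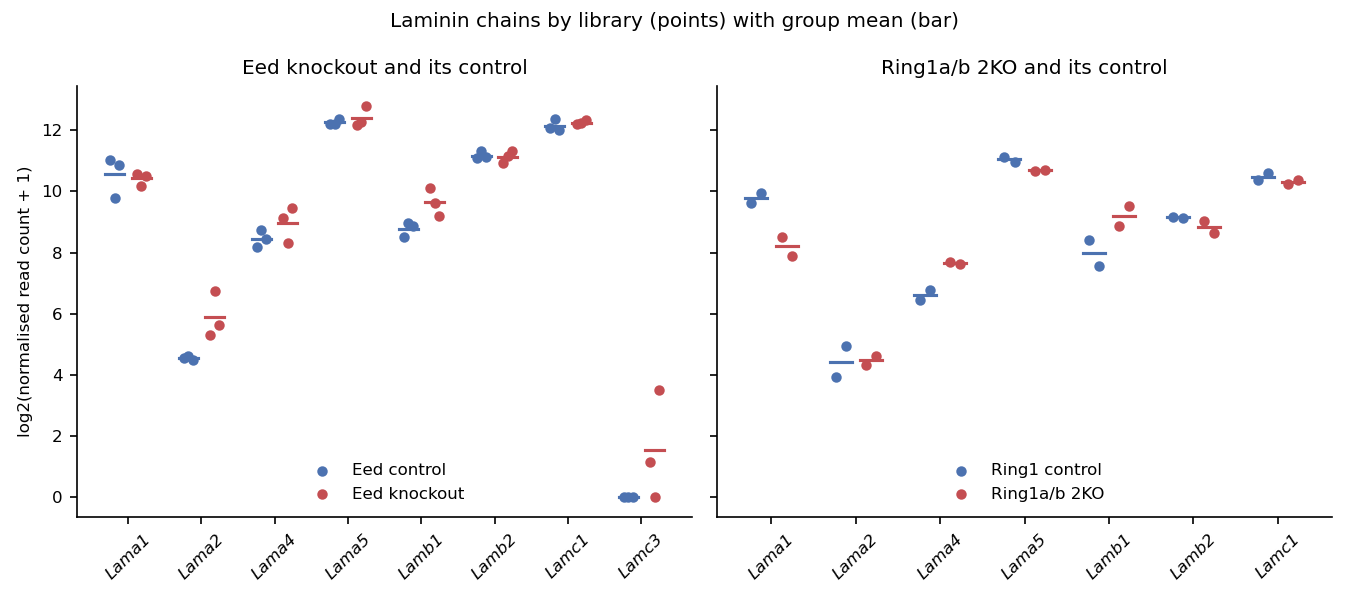
Normalised read counts on a log2(value + 1) axis for the laminin chains in each library (points) with the group mean (bar), for the Eed knockout and its control (left, n = 3 and 3) and the Ring1a/b 2KO and its control (right, n = 2 and 2). Lama1 is lower and Lama4 and Lamb1 are higher in both Ring1a/b 2KO libraries than in both of their controls, and Lamb1 and Lama2 are higher in all 3 Eed knockout libraries.

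The Eed comparison asks what loss of PRC2 does to these chains. None of the 7 chains tested passed an adjusted p under 0.05 in the Eed knockout, and Lamb1 and Lama2 were the 2 whose groups stood apart, both higher. limma called 0 of 16122 genes (0.0%), edgeR on recovered reads also called 0 (0.0%), and the authors' deposited table called 127 of 16684 (0.761%), 118 of them higher (0.707%), with none of the 7 among the calls. At an unadjusted p under 0.05, limma had 2 of the 7, both higher, against 762 of all genes (4.73%) and 548 higher (3.4%), and edgeR had 2 of the 7 against 828 of all genes (5.14%). Ranges stood apart for the same 2 of 7, both higher, against 9.2% of all genes in either direction and 5.06% higher. The median log2 fold change of the 7 was 0.16, with 5 above 0, beside 0.01 and 51.2% above 0 over all genes tested.

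Lamb1, the β chain of most embryonic and adult laminins (chr12:31265234-31329644), had 359, 499 and 468 normalised read counts in the Eed controls against 1107, 782 and 586 in the knockouts. All 3 knockout libraries stood above all 3 controls, with the highest value in knockout library 1. The means differed 1.87-fold, and the limma log2 fold change was 0.86 (SE 0.28, 95% interval 0.23 to 1.49, adjusted p = 0.892). The deposited log2 fold change in the authors' deposited table was 0.90, with an adjusted p of 0.226.

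Lama2, the α chain of muscle and Schwann cell basement membranes (chr10:26980036-27619758), was low throughout, at 22.4, 23.3 and 21.2 in the Eed controls against 38.4, 107 and 48.1 in the knockouts. The knockout libraries were higher without overlap, and library 2 was well above the other two. The means differed 2.89-fold, with a limma log2 fold change of 1.35 (SE 0.52, 95% interval 0.17 to 2.53, adjusted p = 0.989). These values rest on 21 to 103 reads a library. An annotated antisense gene, Gm48084, overlaps exons of Lama2, and how strand was counted is not given in the sources used here.

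Lama4, the vascular α chain (chr10:38965515-39110188), had 291, 428 and 345 in the Eed controls against 554, 319 and 708 in the knockouts. Knockout libraries 1 and 3 were above all controls and library 2 was among them, so the groups overlapped (limma log2 fold change 0.51, SE 0.33, adjusted p = 0.989). Lama5, the main α chain of the second epidermal laminin (chr2:180176373-180225859), had 4708, 4707 and 5326 in the controls against 4626, 4952 and 7186 in the knockouts. Its groups overlapped, and the positive log2 fold change of 0.16 (SE 0.20, 95% interval -0.30 to 0.62) turned to -0.04 without knockout library 3.

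Lama1, an α chain best known from the embryo (chr17:67697259-67822647), had 2087, 882 and 1863 in the Eed controls against 1536, 1158 and 1469 in the knockouts. The controls spread more widely than the knockouts and enclosed them, with a log2 fold change of -0.13 (SE 0.31, 95% interval -0.84 to 0.58). Lamb2 (chr9:108479736-108490530) had 2162, 2585 and 2213 against 1964, 2269 and 2547, and Lamc1, the γ chain shared by nearly all laminins outside laminin-332 (chr1:153218922-153332786), had 4287, 5261 and 4138 against 4677, 4819 and 5142. Both overlapped, with limma 95% intervals of -0.44 to 0.36 for Lamb2 and -0.28 to 0.49 for Lamc1.

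Lamc3, the gene of the γ3 chain (chr2:31887291-31946539), had 0 reads in each Eed control library and 1, 0 and 13 reads in knockout libraries 1, 2 and 3, or 1.2, 0 and 10.3 normalised read counts. Nearly all of its reads came from knockout library 3. The knockout sum of 14 reads has an exact Poisson 95% interval of 7.65 to 23.5, which covers counting error only (amplified reads are not independent molecules), and 0 reads in a control library allow up to 3. Its mean was under the minimum of 5 set for testing so limma did not test it, and the authors' deposited table gives an unadjusted p of 0.187 and no adjusted p. The antisense gene Gm13441 overlaps its exons.

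The Ring1 comparison asks the same of PRC1. In the Ring1a/b 2KO, Lama1 was 2.95-fold lower than in the controls, while Lama4 and Lamb1 were 2.08-fold and 2.27-fold higher. Of the 7 chains tested, limma called none, against 6 of 15310 genes (0.0392%). The authors' deposited table called 1, Lama1, as lower, against 231 of 15498 genes called in either direction (1.49%), 183 higher (1.18%) and 48 lower (0.31%). DESeq2 on recovered reads called the same gene, against 1.57% of all genes. edgeR on recovered reads called 0 of 7 and 0 of all genes (0.0%). At an unadjusted p under 0.05, limma had 3 of the 7 against 1597 of all genes (10.4%), with 2 higher against 5.62% and 1 lower against 4.81%, and edgeR had 3 of the 7 against 1474 of all genes (9.63%). Ranges stood apart for 5 of the 7 against 42.9% of all genes, with 2 higher against 21.4% and 3 lower against 21.5%. The median log2 fold change of the 7 was -0.18, with 3 above 0, beside -0.0006 and 50% above 0 over all genes tested.

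Lama1 was at 780 and 999 normalised read counts in the Ring1 controls against 367 and 235 in the 2KO. Both 2KO libraries were well below both controls, in the deeper libraries (780 against 367) and in the shallower ones (999 against 235). The limma log2 fold change was -1.58 (SE 0.27, 95% interval -2.20 to -0.97, unadjusted p = 0.000232, adjusted p = 0.131). The authors' deposited table gave -1.55 with an adjusted p of 0.00126, and edgeR's quasi-likelihood test gave -1.53 with an adjusted p of 0.240. DESeq2 on recovered reads gave an adjusted p of 0.00123 with all libraries. The call moved in limma and in DESeq2 with a library left out, and each such fit leaves 1 library in a group. The log2 fold change of Lama1 stayed between -1.92 and -1.26 over the fits with a library left out.

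**Figure D2:**
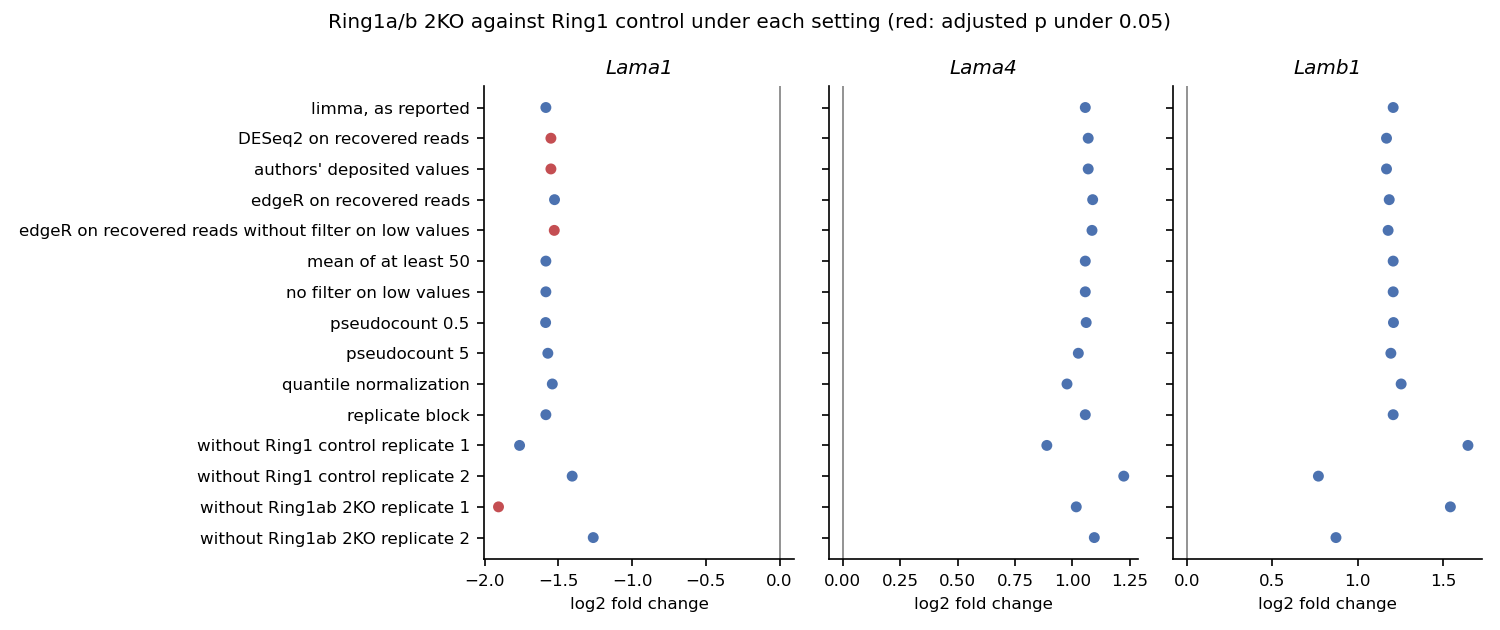
Log2 fold changes of Lama1, Lama4 and Lamb1 in the Ring1a/b 2KO against the Ring1 control (horizontal axes) under each setting (rows; DESeq2 fits without a library are not drawn), with red points where the adjusted p is under 0.05. Lama1 stays below 0 and Lama4 and Lamb1 above 0 in every row drawn, and of these rows 4 have a red point, all for Lama1.

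Lamb1 had 342 and 186 in the Ring1 controls against 463 and 737 in the 2KO. Both 2KO libraries were above both controls, and 2KO library 2 was the highest of the 4. The limma log2 fold change was 1.21 (SE 0.36, 95% interval 0.38 to 2.03, adjusted p = 0.349), and the adjusted p of the authors' deposited table was 0.158. Without 2KO library 1, DESeq2 on recovered reads gave Lamb1 a log2 fold change of 1.46 with an adjusted p of 0.0399, in a fit that called 685 of all genes. Without another library its DESeq2 log2 fold change was 0.79 to 1.69 and its adjusted p 0.322 to 1.00.

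Lama4 had 85.4 and 108 in the Ring1 controls against 206 and 195 in the 2KO. The 2KO libraries lay close together, above both controls, with a limma log2 fold change of 1.06 (SE 0.34, 95% interval 0.29 to 1.82, adjusted p = 0.364). Lama2 had 14.1 and 29.9 against 19.2 and 23.3, so the 2KO values fell between the controls. That comparison rests on 13 to 31 reads a library, and its 95% interval ran from -1.52 to 1.60 on the log2 scale, so a change of the size seen in the Eed knockout was not excluded at this depth.

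Lama5 had 2257 and 1987 in the Ring1 controls against 1639 and 1673 in the 2KO, and Lamb2 had 568 and 565 against 527 and 394. Both were lower in both 2KO libraries without overlap, by 0.36 (SE 0.20) and 0.31 (SE 0.24) on the log2 scale, with adjusted p = 0.571 and adjusted p = 0.687 from limma. Lamc1 had 1319 and 1557 against 1206 and 1325, with overlap and a log2 fold change of -0.18 (95% interval -0.64 to 0.28). Lama3 and Lamb3 lay on the same side in the 2KO, at limma log2 fold changes of -0.44 and -0.77 (Lamb3 unadjusted p = 0.0115, adjusted p = 0.359), and neither was called with all libraries. Without 2KO library 1 the limma adjusted p of Lamb3 was 0.0348, in a fit that called 565 of all genes, and over the 4 fits with a library left out it reached 0.966 (log2 fold changes -1.08 to -0.46).

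**Figure D3:**
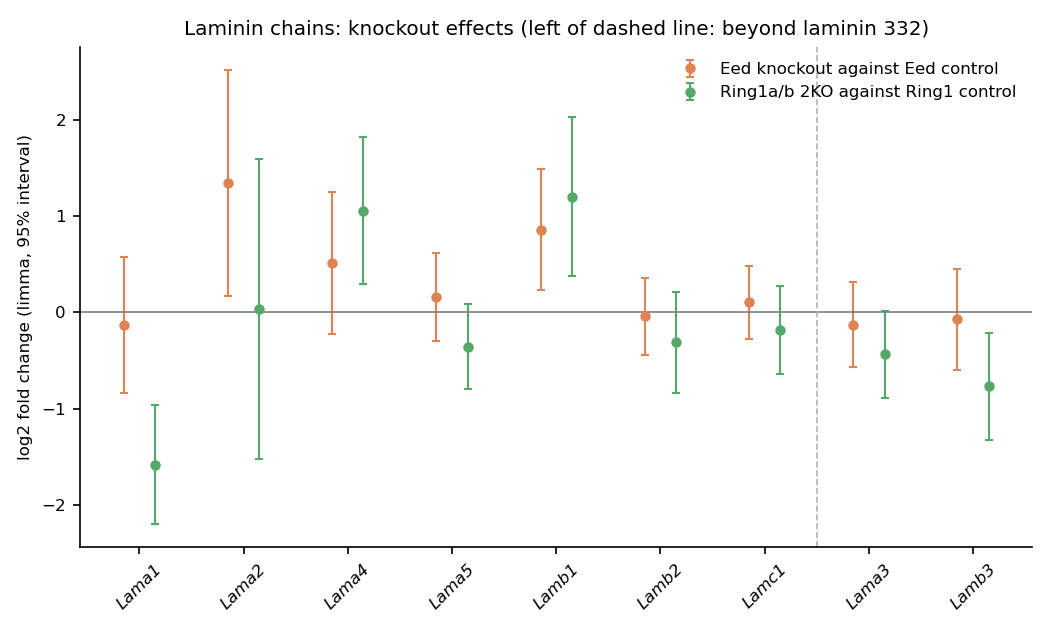
Limma log2 fold changes with 95% intervals (vertical axis) for 7 laminin chains outside laminin-332 and, right of the dashed line, Lama3 and Lamb3, in the Eed knockout (n = 3 and 3) and the Ring1a/b 2KO (n = 2 and 2). Lama1 in the Ring1a/b 2KO lies at -1.58, Lamb1 lies above 0 in both knockouts at 0.86 and 1.21, and Lamc1 lies near 0 in both.

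The make-up of each chain class follows these values. Shares are percent of the summed normalised read counts per kilobase of a class within a library. Lamb1 made up 3.09 ± 0.485% (SD) of the β chains in the Eed controls and 6.03 ± 2.48% in the knockouts (n = 3 each), and 5.42 ± 1.76% in the Ring1 controls and 18.3 ± 8.92% in the 2KO (n = 2 each). In the Ring1 comparison the libraries did not overlap, with 4.18 and 6.66% in the controls against 11.9 and 24.6% in the 2KO. In the Eed comparison the ranges met, at 2.71 to 3.64% and 3.56 to 8.51%. The ratio of Lamb1 to Lamb2 per kilobase within a library was 0.587 and 0.321 in the Ring1 controls against 0.855 and 1.82 in the 2KO, and 2KO library 2 was the only one of the 10 in which Lamb1 exceeded Lamb2. That order depends on transcript length: per kilobase of the mean coding transcript, Lamb1 had 153 ± 49.6 and Lamb2 272 ± 55.4 in the 2KO. In the Eed table that ratio was 0.162, 0.188 and 0.206 in the controls against 0.548, 0.335 and 0.224 in the knockouts, higher in each knockout library without overlap. Being ratios within a library, these values show unequal change and not which gene changed.

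Among the α chains, Lama3 kept the largest share in all 4 groups, from 66.6 to 70.5% on average. Lama1 made up 9.92 ± 1.89% in the Ring1 controls and 4.55 ± 1.2% in the 2KO, and Lama4 1.70 ± 0.308% and 4.82 ± 0.0532%, so Lama4 came level with Lama1, with overlap between them in the 2KO. The ratio of Lama1 to Lama5 per kilobase was 0.413 and 0.601 in the Ring1 controls against 0.268 and 0.168 in the 2KO. In the Eed table that ratio overlapped, at 0.224 to 0.530 in the controls and 0.244 to 0.397 in the knockouts.

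**Figure D4:**
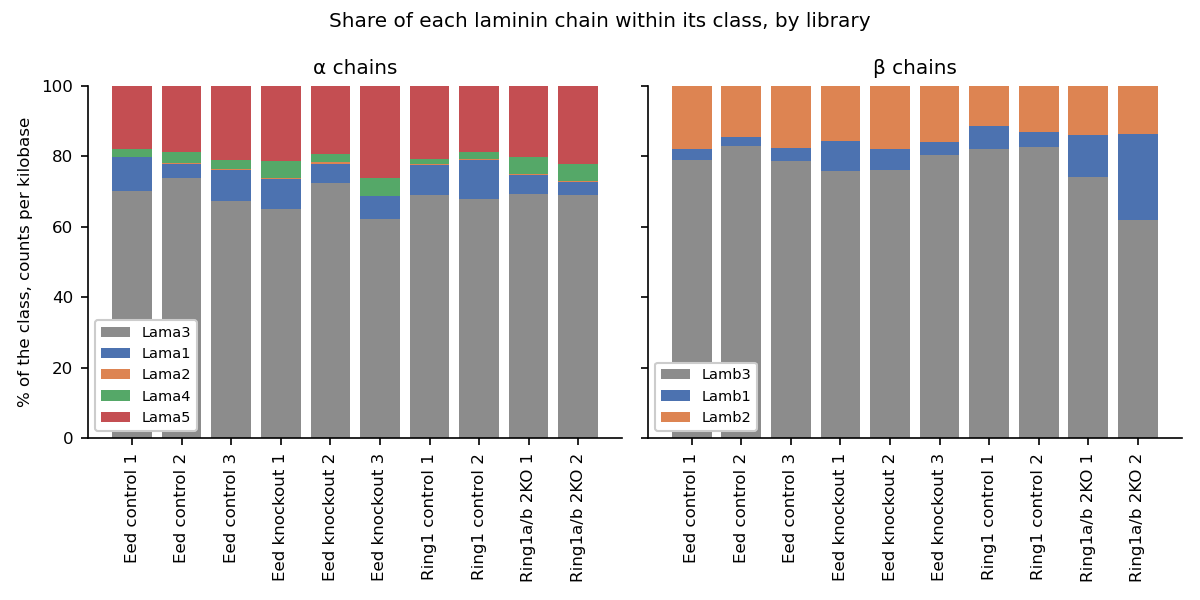
Share of each laminin gene in its α or β class (vertical axis, percent of the summed normalised counts per kilobase) in each of the 10 libraries (horizontal axis), with Lama3 or Lamb3 in grey at the bottom. Lamb1 takes 11.9 and 24.6% of the β class in the Ring1a/b 2KO libraries and at most 8.51% in the other libraries.

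The difference between the 2 knockout effects was tested in 1 fit over all 10 libraries, each effect taken within its own table. None of 15096 genes passed an adjusted p under 0.05 in limma (0.0%), and 285 (1.89%) had an unadjusted p under 0.05. Of the 7 chains, Lama1 alone was among the latter: its effect in the Eed knockout minus that in the 2KO was 1.45 on the log2 scale (SE 0.49, 95% interval 0.39 to 2.52, unadjusted p = 0.0115, adjusted p = 1.00). For Lamb1 the difference was -0.34 (95% interval -1.41 to 0.72), for Lama4 -0.54 (-1.60 to 0.52) and for Lama2 1.31 (-0.49 to 3.1), all with an adjusted p of 1.00. These intervals are wide, and they do not show that the knockouts act alike.

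Cells bind laminins through integrins, dystroglycan, the Lutheran protein Bcam and syndecans. In the Eed knockout 8 of the 14 receptor genes had a positive and 6 a negative log2 fold change, with a median of 0.05 and no call by limma or in the authors' deposited table. Sdc4, a heparan sulfate receptor, was at 37008, 43742 and 25914 in the controls against 19784, 23638 and 20136 in the knockouts, lower without overlap (limma log2 fold change -0.72, SE 0.25, adjusted p = 0.916). Itga1, a collagen and laminin receptor subunit, was at 206, 116 and 161 against 368, 219 and 273, higher without overlap (0.84, SE 0.34, adjusted p = 0.989). In the Ring1a/b 2KO 10 of the 14 were negative, with a median of -0.29, and none was called. There Itga2 was at 2153 and 2604 against 1427 and 1370 (limma log2 fold change -0.76, adjusted p = 0.275), and Itga3, the α subunit of the main integrin for the α5 laminins, was at 2353 and 2114 against 1532 and 1212 (-0.71, adjusted p = 0.331). Both subunits were lower in both 2KO libraries, and at an unadjusted p under 0.05 the receptor list had 5 lower and 1 higher in limma, against 4.81% and 5.62% of all genes.

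Partners of laminins in the basement membrane include nidogens, perlecan, type IV collagens and fibulins. Of 24 tested in the Eed knockout, 13 were positive and 11 negative (median 0.06). limma called none. The authors' deposited table, with an adjusted p for 23 of the list, called 1 as higher (0.707% of all genes there): Fbln2, a fibulin that binds laminin α chains. Fbln2 was at 37.0, 58.8 and 63.7 in the Eed controls against 705, 226 and 375 in the knockouts, an 8.18-fold difference of means with no overlap (limma log2 fold change 2.89, SE 0.46, adjusted p = 0.336; the authors' deposited table, adjusted p = 1.19e-07). Fras1, of the Fraser complex under the epidermis, was at 17.5, 100 and 25.3 against 704, 101 and 63.1, and the difference rests on knockout library 1. Of 23 tested in the Ring1a/b 2KO, 10 were positive and 13 negative (median -0.16). limma called none. The authors' deposited table, with an adjusted p for 24, called Fbln1 and Fbln2 as higher and Col4a6 as lower, against 1.18% and 0.31% of all genes.

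Fbln2 was at 75.0 and 49.9 in the Ring1 controls against 342 and 586 in the 2KO, 7.43-fold higher by means (limma log2 fold change 2.85, SE 0.38, adjusted p = 0.0551; the authors' deposited table, adjusted p = 3.91e-08). Fbln1 was at 56.8 and 69.8 against 202 and 312 (limma log2 fold change 1.98, SE 0.38, adjusted p = 0.153; the authors' deposited table, adjusted p = 0.000859). With a library left out, limma log2 fold changes ran from 2.46 to 3.24 for Fbln2 and from 1.67 to 2.29 for Fbln1. Col4a6, a type IV collagen chain outside the rule for named genes and named after its value was seen, had means of 1219 and 600 (limma log2 fold change -1.03, SE 0.21, adjusted p = 0.179; the authors' deposited table, adjusted p = 0.0144). Nid1, the nidogen that links laminin γ1 to type IV collagen and also outside that rule, had means of 26.1 and 92.1 (limma log2 fold change 1.75, SE 0.59, adjusted p = 0.379), so it did not pass.

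Netrins and laminin-cleaving proteases gave no call. In the Eed knockout 7 of 14 were positive (median 0.003), and in the Ring1a/b 2KO 5 of 12 (median -0.19). Htra1, a secreted protease, was at 1200 and 989 in the Ring1 controls against 690 and 545 in the 2KO (limma log2 fold change -0.83, SE 0.22, adjusted p = 0.280), below without overlap. Plat, the tissue plasminogen activator, was at 331.8 and 267.5 against 250 and 170 (-0.53, adjusted p = 0.582), also below without overlap. In the Eed table the protease genes Mmp3 (-0.59) and Bmp1 (0.19) overlapped, both with an adjusted p of 0.989. The enzymes that build the laminin-binding glycan of dystroglycan gave no call either, with 8 of 13 positive in each comparison and medians of 0.07 and 0.13. Ispd, which makes a sugar donor for that glycan, had 50.01 and 74.78 in the Ring1 controls against 104 and 142 in the 2KO, higher without overlap (limma log2 fold change 0.98, SE 0.43, adjusted p = 0.477). Rxylt1, a xylosyltransferase of the glycan, had 496, 660 and 588 in the Eed controls against 984, 686 and 781 in the knockouts, also without overlap (0.48, SE 0.23, adjusted p = 0.989). Pomt1, which starts the glycan, had 181 and 198 in the Ring1 controls against 137 and 134 in the 2KO (-0.47, adjusted p = 0.642), and in the Eed libraries it had 839, 821 and 727 against 553, 773 and 602 (-0.32, adjusted p = 0.989).

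Several of these laminin genes are also made by other skin cells, and in bulk samples fewer cells of a type and less RNA per cell cannot be told apart. The summed normalised counts of 10 fibroblast markers overlapped in both comparisons, but most of each sum came from Thy1, which T cells also make (3896 to 6173 in the Eed table and 794 to 1263 in the Ring1 table). Without Thy1, a sum chosen after its values were seen, the other 9 came to 158 and 179 in the Ring1 controls. In the 2KO the 9 came to 902 and 290, higher without overlap, as Lama4 and Lamb1 were. Dcn gave 691 of the 902 in 2KO library 1. Lamb1 had 463 in that library and 737 in 2KO library 2, the reverse order, and Lama4 had 206 and 195. In the Eed table the 9 markers came to 237, 192 and 716 against 1639, 544 and 682, with overlap. With Thy1, 7 of 8 tested markers were positive in the Eed knockout and 6 of 7 in the 2KO.

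The fibroblast proteoglycan Dcn was at 19.5, 34.5 and 74.8 in the Eed controls against 863, 306 and 129 in the knockouts, higher without overlap. Lamb1 and the fibroblast marker Fbn1 (63.5, 7.26 and 5.52) ranked knockout libraries 1, 2 and 3 in the same order. The other fibroblast markers ranked them otherwise, among them Col1a1 (46.8, 28.0 and 78.9) and Vim (616, 184 and 301). Lama4 (554, 319 and 708) ranked these knockout libraries as Col1a1 did, and not as Vim, Dcn or Fbn1 did. In the Ring1 table Dcn was at 35.4 and 56.5 against 691 and 48.4, high in 2KO library 1 alone. The fibroblast collagen Col1a1 was at 11.5 and 24.9 in the Ring1 controls against 51.9 and 48.4 in the 2KO, and at 19.3 to 70.8 and 28.0 to 78.9 in the Eed groups. Summed endothelial markers overlapped (651 and 769 against 729 and 604 in the Ring1 table, 395 to 787 against 515 to 807 in the Eed table). Most of each endothelial sum came from Pecam1 (161 to 510) and Flt1 (89.3 to 253), while Cdh5 stayed between 0 and 13.6 over both tables. Of the endothelial markers tested, 4 of 8 were positive in the Eed knockout and 4 of 6 in the 2KO. Summed pericyte and smooth muscle markers overlapped too (910 and 995 against 955 and 905 in the Ring1 table, 3722 to 5938 against 3789 to 4767 in the Eed table). Nearly all of each sum came from Cspg4 (339 to 565 in the Ring1 table) and Notch3 (367 to 516 there). Both sums therefore say little about the other markers of these lists. Of the pericyte markers tested, 3 of 5 were positive in the Eed knockout and 4 of 6 in the 2KO, and Pdgfrb was between 0 and 3.09. Of the markers with a row in a table, none was at 0 in every library of it; 5 markers have no row in the Eed table and 6 have none in the Ring1 table.

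Of 13 marker lists, none had summed levels that stood apart in the Eed table and 7 did in the Ring1 table, where 42.9% of single genes stood apart as well. Hair follicle markers summed to 5074 and 3910 in the Ring1 controls against 10837 and 6706 in the 2KO, with 8 of 8 tested markers positive, and 8 of 9 were positive in the Eed knockout (11174 to 17004 against 14307 to 40247). Also higher in the 2KO were the sums of melanocyte (241 and 311 against 658 and 353), Merkel cell (14.6 and 29.9 against 139 and 64.5), suprabasal keratinocyte (44371 and 39813 against 55519 and 56517) and muscle and adipocyte markers (41.2 and 64.8 against 74.2 and 98.6). The suprabasal sum rose with Krt1 (13947 and 9866 against 24228 and 35925). Of the 7 suprabasal markers tested, 5 were negative and 2 positive, with a median log2 fold change of -0.57. Lower sums were those of basal keratinocyte markers (405283 and 333624 against 322699 and 279524) and Schwann cell markers (3037 and 3555 against 2327 and 1694). For Lama2, the Schwann cell sum overlapped in the Eed table (7774 to 12232 against 6408 to 9410), with 2 of 5 tested markers positive and 3 negative. Sox10, which is also on the melanocyte list, was at 0 in the controls and 1.04 to 3.60 in the knockouts. These values are at most 3 reads a library, too few to read as a difference. The mitochondrial share of counts was 6.51 and 7.28% in the Ring1 controls against 8.16 and 12.7% in the 2KO, and 2.34 to 2.81% and 2.85 to 3.58% in the Eed groups. The part of these markers and of the mitochondrial share in the laminin values was not tested.

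Patterns across the 10 libraries were compared as Pearson correlations of log2(value + 1), centred within each table, over the 11290 genes whose mean reached 50 in each table. Libraries share groups and sequencing depth, so these are descriptions. The genes most like Lama1 were Ggnbp2 (0.98), Kctd3 (0.96) and Map3k5 (0.94), those most like Lamb1 were Pdf, Fkbp11 and Dtnb (0.97, 0.97 and 0.96), and those most like Lama4 were Fbxw9, Krt7 and Runx2 (0.94, 0.93 and 0.92). Among laminin pairs the highest value was 0.93, for Lamb2 with Lamb3. The lowest were -0.781 for Lamb1 with Lama3 and -0.780 for Lama4 with Lama3, and Lama1 with Lamb1 had -0.71.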

How the data were processed

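The members and gene lists were chosen with earlier results of these data known. The authors deposited 1 gene table for the Eed libraries and 1 for the Ring1 libraries. Per the submitters' processing notes, kallisto 0.42.5, DESeq2 3.11 and mm10 were used; the sources used here do not give settings or strand handling. Values per library are the authors' deposited normalized counts, a signal unit, and 100% were whole multiples of 1 step within 1e-06, so reads were recovered. The log2 fold changes, p-value columns and the test statistic (score) column of the deposited tables are the authors' own, and the score was not used.

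limma 3.58.1 (trend, robust; R 4.3.3) was run on log2(value + 1), keeping genes whose mean reached 5, each knockout against its own control, with a Benjamini-Hochberg adjusted p under 0.05 as the call. Fold changes are on that scale and understate the change of low genes; folds in the text are ratios of group means. Because each table has its own normalization, no level was tested across tables. Alternatives were quantile normalization, pseudocounts of 0.5 and 5, a minimum mean of 50 or none, edgeR 4.0.16 (quasi-likelihood) and DESeq2 1.42.0 on recovered reads, the authors' deposited values, replicate number as a block, transcript length, and each library left out. Chosen after seeing the data were edgeR without the filter and DESeq2 without each library. The limma, edgeR and DESeq2 code was tested on simulated data. GENCODE M21 matched 17830 of 18502 and 17686 of 18344 identifiers with their version.

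Named genes were the 8 members, Lama3 and Lamb3, the 2 genes with the smallest limma p in each list with a mean of at least 50, and the 3 genes most like each member. Lists and markers were written from general knowledge. Some results are not reported here.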

Additional observations from a re-analysis of the deposited data

How the results depend on the processing

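With 2 or 3 libraries a group and 6237389 reads in the shallowest library, log2 intervals of the low genes Lama2 and Lamc3 are wide or absent, and where leaving out a library left 1 in a group, that library was assumed to vary like the others. In the Eed knockout 0 members were called under every setting run, while DESeq2 on recovered reads and the authors' deposited values each called 127 of all genes and leaving out a library gave 0 to 4 genes with limma and 31 to 188 with DESeq2 (lowest without knockout library 1, highest without control library 2). In the Ring1a/b 2KO all genes called numbered 6 with limma, 10 without the filter, 238 with DESeq2, 231 in the authors' deposited values, 0 with edgeR, 126 with edgeR without the filter, and 0 to 565 (limma) or 39 to 685 (DESeq2) with a library left out. The highest counts, 565 and 685, came without 2KO library 1, and the lowest came without a control library. Of the members, 1 (Lama1) was called with DESeq2, in the authors' deposited values and with edgeR without the filter (adjusted p = 0.0183), and leaving out a library gave 0 to 1 with limma and 0 to 2 with DESeq2.

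Whether same-numbered samples share a litter or batch is not given in the sources used here, although the Eed column names carry 1 letter per number and in the Ring1 table depth goes with the number. The correlations of same-numbered deviations were -0.20, 0.16 and 0.31 in the Eed table, where not every sample correlated best with its own number. In the Ring1 table they were 0.23 for same-numbered pairs and -0.23 for the others. With 2 libraries a group the deviations mirror each other, so that is 1 value and cannot decide the pairing. Pairing was not assumed in either table. With replicate number as a block, limma called 1 gene in the Eed knockout and 36 in the 2KO, none of them a member.

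The sign turned in these cases: Lama2 in the 2KO was -0.025 with DESeq2 and in the authors' deposited values and -0.27 with quantile normalization, and Lamb3 in the Eed knockout was 0.053 with quantile normalization. With a library left out, log2 fold changes ran from -0.52 to 0.10 for Lama1, -0.035 to 0.28 for Lama5, -0.13 to 0.056 for Lamb2 and -0.21 to 0.13 for Lamb3 in the Eed knockout, from -0.48 to 0.56 for Lama2 in the 2KO, and from -0.78 to 0.094 for the difference in Lamb1. With DESeq2 they ran from -0.50 to 0.0093 for Lama1, -0.040 to 0.31 for Lama5 and -0.13 to 0.057 for Lamb2 in the Eed knockout, and from -0.50 to 0.57 for Lama2 in the 2KO. The cause was not tested.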
